A study of Mus musculus with 15 samples.

Results

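The cluster of miR-302 and miR-367 is a row of 5 microRNA hairpins, mmu-mir-302b, mmu-mir-302c, mmu-mir-302a, mmu-mir-302d and mmu-mir-367, and it is described here across developmental stage and genotype in mouse embryos. The members were taken by name from the table of hairpins, and all 5 of them, out of 1226 hairpins listed, were found and passed the filter for testing (10 or more normalized counts in 2 or more libraries, which left 299 hairpins). Names are given below without the prefix mmu-. Small RNA was sequenced from 15 libraries of C57BL/6 mice, 7 of wild type (WT) and 8 of miR-302 knockout (KO) embryos, in 6 groups. At E7.5 there were 2 WT and 2 KO libraries of whole embryos. Neural crest cells sorted as Wnt1-Cre+ gave 3 WT and 4 KO libraries at E8.5, and cells sorted as Sox10+ gave 2 WT and 2 KO libraries at E9.5. Wnt1-Cre is active in the dorsal part of the neural tube, so its sort takes cells still in the tube as well as neural crest that has left it, whereas Sox10 is a factor of crest cells on the move. Each stage was taken from another cell source, so a change between stages and a change of cell source cannot be told apart. The exact bases removed in the KO allele, and whether the libraries of a group came from separate litters, are not stated in the labels, so p-values measure the spread between these libraries, which may be technical.

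A microRNA gene is transcribed as a long primary RNA, from which the hairpins are cut in the nucleus and then trimmed to mature strands of the 5′ (5p) and 3′ (3p) arm. Bases 2 to 8 of a mature strand, its seed, pair with target messenger RNAs. The cluster is transcribed as a single primary RNA and is best known for its high expression in pluripotent cells of the epiblast and in early embryos, where its 3p strands act on cell cycle and differentiation genes. The cluster lies on the plus strand of chromosome 3 (GRCm38) over 580 bases. mir-302b comes first, at chr3:127545228-127545301, followed by mir-302c at chr3:127545363-127545430, mir-302a at chr3:127545496-127545564, mir-302d at chr3:127545624-127545689 and mir-367 at chr3:127545733-127545807. The hairpins are 66 to 75 bases long and are separated by 43 to 65 bases. All 5 sit inside the protein-coding gene Larp7, which runs on the minus strand at chr3:127536714-127553349, in intron 8 of its transcript with 13 exons and intron 5 of a shorter transcript with 6 exons, and none overlaps an exon of the 4 annotated Larp7 transcripts.

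The mature strands of the cluster, from RefSeq (GRCm38.p6), show what sets mir-367 apart from its 4 neighbours. They are printed 5′ to 3′ with the seed in capitals. The reference used held no entry for the 3p strand of miR-302a, so that strand is missing here and its seed was not compared.
miR-302b-3p: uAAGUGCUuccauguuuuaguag
miR-302d-3p: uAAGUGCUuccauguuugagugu
miR-302c-3p: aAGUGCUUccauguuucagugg
miR-367-3p: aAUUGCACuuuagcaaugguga
miR-302a-5p: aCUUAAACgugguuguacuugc
miR-302b-5p: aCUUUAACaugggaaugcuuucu
miR-302c-5p: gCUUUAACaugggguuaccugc
miR-302d-5p: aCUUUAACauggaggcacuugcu
miR-367-5p: aCUGUUGCuaacaugcaacuc
The 3p strands of miR-302b and miR-302d share the seed AAGUGCU and are identical at 21 bases of 23. miR-302c-3p is listed as starting 1 base further along the same run, so that its bases 2 to 8 read AGUGCUU, and it matches either of the other 2 at 20 bases. miR-367-3p has the seed AUUGCAC and matches the 3 printed miR-302 3p strands at 11 or 12 bases in a global alignment. The reads were deposited per hairpin, with no value above 0 for any mature strand, so each value below sums both arms of a hairpin.

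Other hairpins carry the same seeds and are used as the comparison later. AAGUGCU is also the seed of the 3p strands of mir-291a, mir-294 and mir-295, members of the mir-290 cluster of mouse embryonic stem cells on chromosome 7.
miR-291a-3p: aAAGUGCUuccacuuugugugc
miR-294-3p: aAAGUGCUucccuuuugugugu
miR-295-3p: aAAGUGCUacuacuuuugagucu
AUUGCAC is the seed of the miR-92 and miR-25 group, on chromosomes 3, 4, 5, 14 and X, of which miR-92a-3p and miR-363-3p are shown because one is the most abundant of them here and the other begins with the same base as miR-367-3p.
miR-92a-3p: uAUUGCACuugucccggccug
miR-363-3p: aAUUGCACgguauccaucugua

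Depth ran from 1706 to 323389 reads per library, and KO libraries were shallower (1706 to 52362 reads) than WT libraries (24465 to 323389 reads). The deposited values are read counts divided by 1 size factor per library, called normalized counts below. In these units 1 read was worth 0.147 to 2.38 in 12 of the 15 libraries and up to 19.3 in the shallowest, E8.5 KO replicate 3. Intervals on read counts cover counting error only. Unless another tool is named, tests are limma's on log2(normalized count + 1) with Benjamini-Hochberg adjustment over the 299 hairpins, a hairpin is called where its adjusted p is under 0.05, the ± beside a log2 fold change is its standard error, and the fold changes understate changes near 0. Messenger RNAs that define neural crest were not measured in these libraries. Of the 3 blood hairpins, mir-451a of red blood cells had 0 reads in all 15 libraries, and the 3 summed to at most 8.80 normalized counts.

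In WT libraries mir-302b was the most abundant member, and all 4 miR-302 hairpins were low at E9.5. The hairpin mir-302b stood at 2154 and 7776 normalized counts in the E7.5 embryos, at 3640, 2145 and 3935 in the E8.5 cells and at 212 and 253 in the E9.5 cells. E7.5 and E8.5 overlap, and both E9.5 libraries lie far below them. It ranked between first and sixth of all hairpins in each WT library of E7.5 and E8.5, and 38th and 26th at E9.5. The other 3 miR-302 hairpins were likewise lowest at E9.5. For mir-302d the values were 1096 and 4102, then 1364, 1044 and 1478, then 70.8 and 121. mir-302a stood at 645 and 1926, then at 838, 604 and 967, then at 49.2 and 82.3. The least abundant of the 4, mir-302c, stood at 106 and 422, then at 169, 82.3 and 142, then at 6.47 and 10.3. In each of the 4 the spread between the pair of E7.5 embryos, of which replicate 2 was the higher, was wider than the spread of the E8.5 libraries.

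**Figure D1:**
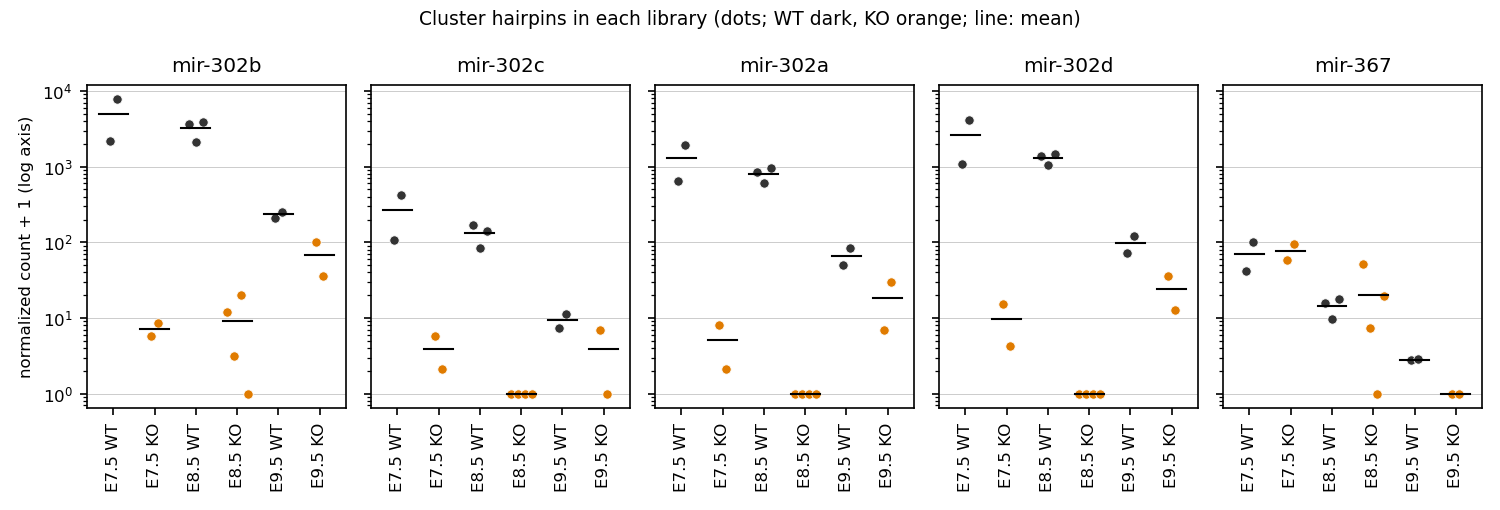
Normalized count + 1 on a log axis for each cluster hairpin in each library (dots, WT dark and KO orange), by stage and genotype, with a line at the mean. WT and KO are far apart for the 4 miR-302 hairpins at E7.5 and E8.5 and closer at E9.5, while mir-367 dots of WT and KO mix at E7.5 and E8.5.

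The level of mir-367, at the 3′ end of the row, was low throughout. It stood at 41.1 and 98.8 normalized counts in E7.5 WT embryos, at 14.7, 8.81 and 16.98 in E8.5 WT cells and at 1.76 and 1.87 in E9.5 WT cells. The 3 stages do not overlap and each is lower than the one before; between E7.5 and E8.5 this held for 38.8% of all tested hairpins. These values rest on 349, 100 and 18 reads. Among the cluster reads of a WT library, mir-367 made up 0.227% to 1.02%. Its hairpin is 75 bases long and the other 4 are 66 to 74.

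From E7.5 to E8.5 in WT, none of the 5 hairpins was called by limma, against 17.1% of all tested hairpins called lower. The log2 fold changes of the 4 miR-302 hairpins were -0.39 ± 1.02 (mir-302b), -0.75 ± 0.94 (mir-302c), -0.50 ± 0.80 (mir-302a) and -0.73 ± 0.73 (mir-302d), with limma adjusted p-values of 0.605 to 0.920. The 95% intervals of these differences reach from -2.77 to 1.81, so a drop or a rise within those bounds could have been missed. The median over all 299 hairpins was -0.48, and under library-sum scaling, which moves that median by 0.58, mir-302b and mir-302a turned to 0.26 and 0.15. Without E7.5 WT replicate 2 all 4 were between 0.23 and 0.54. mir-367 had a log2 fold change of -2.21 ± 1.26 (limma adjusted p = 0.290), and it was called lower on the recovered reads by edgeR (-2.38, adjusted p = 0.0191, 26.1% of hairpins called lower) and DESeq2 (-2.38, adjusted p = 0.0136, 25.8%). Pooled over libraries, mir-367 was 5.53-fold lower at E8.5 than at E7.5 (95% exact interval of the ratio 0.143 to 0.226), and mir-302a to mir-302d together were 1.84-fold lower (0.535 to 0.550).

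Between the E8.5 and E9.5 WT cells the 4 miR-302 hairpins were lower by a like factor. Pooled, the fold was 14.2 for mir-302b, 15.6 for mir-302c, 13.6 for mir-302a and 14.9 for mir-302d, and 7.53 for mir-367. The groups do not overlap for any of the 5, which held for 24.7% of all tested hairpins in the same direction. limma called mir-302d (log2 fold change -3.78 ± 0.73, adjusted p = 0.0121), mir-302a (-3.61 ± 0.80, adjusted p = 0.0231) and mir-302c (-3.78 ± 0.94, adjusted p = 0.0439) lower, against 1.67% of all tested hairpins. It did not call mir-302b (-3.75 ± 1.02, adjusted p = 0.0658) or mir-367 (-2.32 ± 1.26, adjusted p = 0.418). The median over the 5 was -3.75, beside 0.03 over all 299 hairpins. edgeR and DESeq2 called all 5 lower, against 5.69% and 8.36% of hairpins. Leaving out any 1 of the 5 libraries compared left none called by limma, at log2 fold changes of the 4 miR-302 hairpins between -4.16 and -3.24. Marker sums moved at this step too, and their part in the result was not tested. The 6 epithelial hairpins summed to between 225 and 281 normalized counts at E8.5 and to 22.8 and 23.8 at E9.5. The 8 pluripotent cell hairpins of the mir-290 cluster, with mir-292b at 0, summed to between 224 and 339 and then to 36.2 and 49.7, and the 5 mesenchymal hairpins to between 82.6 and 155 and then to 1630 and 1779. The 3 vascular hairpins summed to between 57.1 and 127 and then to 159 and 200. The 3 blood hairpins summed to at most 0.515 and then to 0.936 and 2.06, where 1 read was worth up to 1.84 in the E8.5 WT libraries. The sums of the other marker lists overlapped. Whether fewer cells held the cluster microRNAs or each cell held less cannot be told apart in sorted bulk samples.

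From E7.5 to E9.5 in WT all 5 hairpins were called lower, where 17.7% of all tested hairpins were. The log2 fold changes were -4.14 ± 1.12 for mir-302b (limma adjusted p = 0.0162), -4.54 ± 1.03 for mir-302c (0.00482), -4.11 ± 0.88 for mir-302a (0.00323) and -4.50 ± 0.80 for mir-302d (7.01e-04). That of mir-367 was -4.52 ± 1.38 (limma adjusted p = 0.0315). On this scale, which understates changes near 0, the 5 ran from -4.54 to -4.11, and their median of -4.50 stands beside -0.65 over all hairpins. The spread was wider in pooled reads. There mir-367 was 41.7-fold lower, on 18 reads at E9.5, while the miR-302 hairpins ranged from 23.3-fold (mir-302a) to 37.9-fold (mir-302c). By edgeR mir-367 stood at -5.22, beside -4.29 (mir-302a) to -4.98 (mir-302c). Whether mir-367 fell further than its neighbours was not tested. Without E7.5 WT replicate 2 only mir-302d was still called (the other 4 at adjusted p = 0.0601 to 0.185). Without either E9.5 WT library, or with library-sum scaling, mir-302b and mir-367 were not called, and without E7.5 WT replicate 1 mir-367 was not (adjusted p = 0.0595). mir-367 also missed the threshold with TMM scaling, TMM without the cluster, no filter and a pseudocount of 0.5 (adjusted p = 0.0530 to 0.0609). The authors' deposited table of Mfuzz clusters, a soft clustering of time courses, put mir-302a to mir-302d together in its cluster 6 and mir-367 in its cluster 5, which hold 55 and 63 of 413 hairpins.

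**Figure D2:**
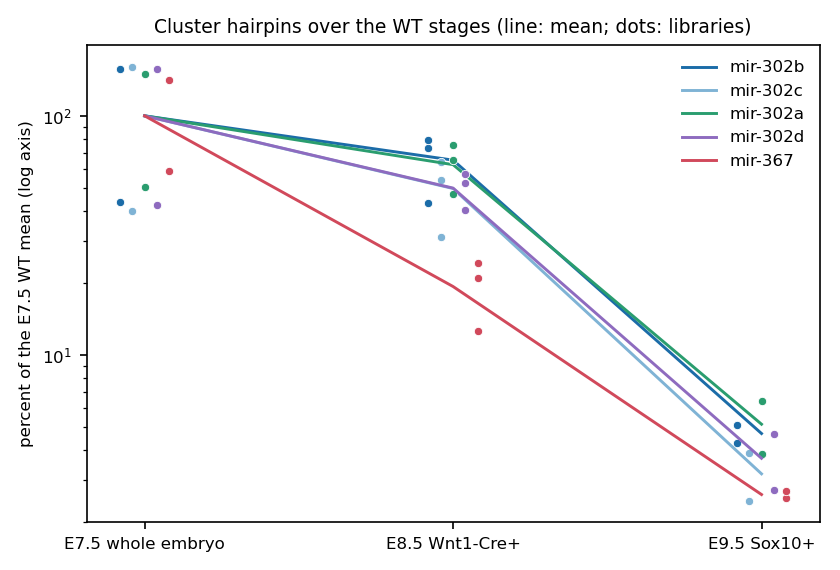
WT values of each cluster hairpin as a percent of its own E7.5 WT mean, on a log axis, at the 3 stages; lines join the means and dots are libraries. The line of mir-367 drops at both steps, by 5.53-fold and 7.53-fold in pooled reads, and the lines of the 4 miR-302 hairpins drop mainly between E8.5 and E9.5.

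Within the miR-302 reads of WT libraries, mir-302b held the largest share at every stage and no share passed a test of a difference between stages. The share of mir-302b in the reads of mir-302a to mir-302d was 53.8% and 54.7% in the E7.5 pair, 60.6%, 55.4% and 60.3% in the E8.5 libraries and 62.6% and 54.2% in the E9.5 pair. Both E7.5 libraries lie below the 3 E8.5 libraries, and the E9.5 pair overlaps both stages. Means were 54.2% ± 0.581 (SD, n = 2), 58.8% ± 2.94 (n = 3) and 58.4% ± 5.89 (n = 2). Both E7.5 libraries (27.4% and 28.8%) lie above all later WT libraries (20.9% to 26.9%) in the share of mir-302d. mir-302d made up 28.1% ± 1.02, 24.1% ± 2.46 and 23.4% ± 3.49 at the 3 stages, mir-302a 14.8% ± 1.83, 14.8% ± 0.823 and 16.1% ± 2.19, and mir-302c 2.81% ± 0.225, 2.37% ± 0.383 and 2.06% ± 0.209. An exact permutation test of the stage labels over the 7 WT libraries (sum of squares between stages, 210 assignments) gave p = 0.448 for the share of mir-302b, 0.314 for mir-302d, 0.657 for mir-302a and 0.200 for mir-302c, and at least 0.597 after adjustment over the 4 shares. Divided by hairpin length, the share of mir-302b was 51.4% to 60.3% in the WT libraries, and the order of the 4 was the same.

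**Figure D3:**
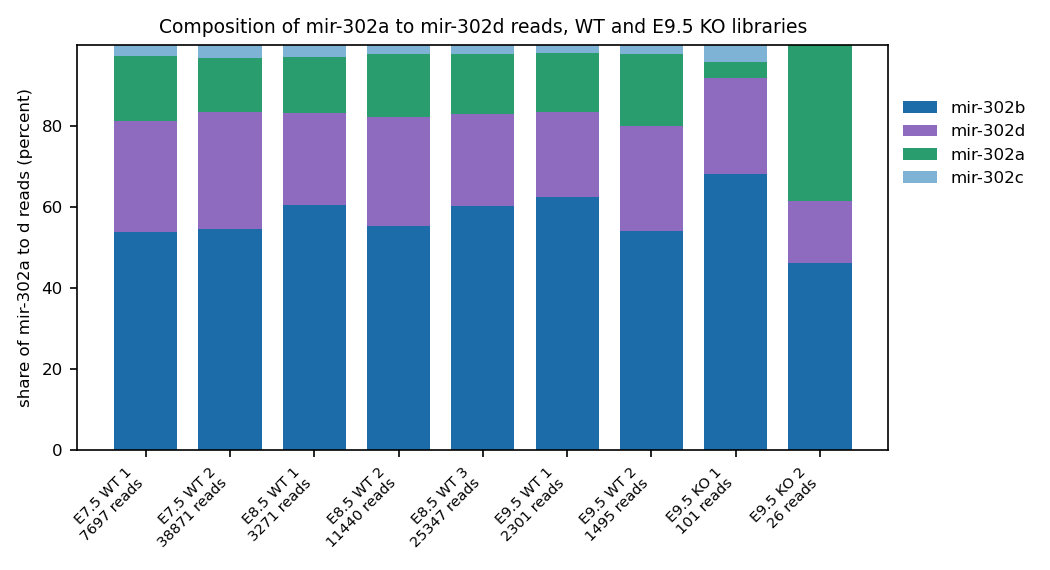
Share of each hairpin in the reads of mir-302a to mir-302d, in percent, for the 7 WT and the 2 E9.5 KO libraries, with the number of reads behind each bar. The order of the 4 hairpins is the same in all WT bars; the bar of E9.5 KO replicate 2 rests on 26 reads and has a larger share of mir-302a.

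In the E7.5 KO embryos the 4 miR-302 hairpins were near 0 and mir-367 was at the WT level. mir-302b stood at 4.77 and 7.67 normalized counts in KO, mir-302d at 14.3 and 3.29, mir-302a at 7.15 and 1.10, and mir-302c at 4.77 and 1.10. Each of the 4 lies below both WT libraries, which held for 20.4% of all tested hairpins. limma called the same 4 lower, against 2.68% of all tested hairpins, with a median over the 5 members of -8.03 beside -0.25 over all. The reads left in KO numbered 9, 9, 4 and 3, and pooled KO levels were 0.124% of WT for mir-302b (95% exact interval 0.0566% to 0.235%), 0.236% for mir-302d (0.108% to 0.449%), 0.215% for mir-302a (0.0586% to 0.551%) and 0.772% for mir-302c (0.159% to 2.26%). Fitted on the 4 E7.5 libraries alone, none of the 4 was called. Other hairpin lists also differed between the E7.5 groups, and their part in the result was not tested. The 3 vascular hairpins summed to 207 and 952 in WT and to 1268 and 1426 in KO. The 6 epithelial hairpins summed to 520 and 1021 in WT and to 455 and 468 in KO. The 5 endoderm and liver hairpins summed to 172 and 218 in WT and to 145 and 171 in KO. The sums of the other marker lists overlapped. At E8.5 the WT and KO sums overlapped in each of the 8 marker lists.

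mir-367 at E7.5 stood at 57.2 and 93.2 normalized counts in KO, beside 41.1 and 98.8 in WT. The KO pair lies between the WT pair. Pooled, KO was at 109% of WT (349 WT and 109 KO reads, interval 87.2% to 136%). The log2 fold change was 0.19 ± 1.38 with a 95% interval of -2.78 to 3.16 (limma adjusted p of 1). That interval lies above the fitted changes of the other 4, which ran from -9.18 to -5.94.

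At E8.5, 3 of the 4 miR-302 hairpins had no read in any of the 4 KO libraries. Against the floor of 3 reads over the group, mir-302d was at least 1017-fold lower in KO, mir-302a at least 637-fold lower and mir-302c at least 94.2-fold lower. mir-302b, the first hairpin of the cluster, had 7, 3, 1 and 0 reads in the KO libraries, or 11.0, 2.14, 19.3 and 0 normalized counts, and the 19.3 is 1 read in the shallowest library. Pooled, mir-302b was at 0.146% of WT (0.0730% to 0.262%). limma called the 4 hairpins lower, which are all of the 1.34% of tested hairpins called lower in this comparison, with fold changes on its scale of -9.22 ± 0.86 for mir-302b (adjusted p = 4.56e-06), -10.32 ± 0.61 for mir-302d (4.23e-08), -9.62 ± 0.67 for mir-302a (1.92e-07) and -6.98 ± 0.79 for mir-302c (3.62e-05). Non-overlap in this direction held for 6.35% of tested hairpins. The median over the 5 members was -9.22, beside -0.20 over all hairpins.

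mir-367 in the E8.5 KO cells stood at 50.5, 6.43, 0 and 18.7 normalized counts (32, 9, 0 and 5 reads), beside 14.7, 8.81 and 16.98 in WT. The KO libraries surround the WT libraries. Pooled, KO was at 144% of WT (100 WT and 46 KO reads, interval 99.5% to 207%). limma gave a log2 fold change of -0.59 ± 1.06 with an interval of -2.86 to 1.68 (adjusted p = 0.867), and the sign turned to 0.48 without E8.5 KO replicate 3, to 0.74 in edgeR and to 0.73 in DESeq2. The WT replicate 2 and KO replicate 4 libraries share 1 number in their label codes (169). In that pair the WT and KO values were 8.81 and 18.7 for mir-367, and 2145 and 0 for mir-302b. The 4 E7.5 libraries also share 1 code number (239).

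With the other hairpins near 0, mir-367 made up most of the cluster reads in 5 of the 6 KO libraries of these 2 stages. The log2 ratio of mir-367 to mir-302b, each with 1 added, was -5.68 and -6.28 in E7.5 WT and 3.34 and 3.44 in E7.5 KO. In E8.5 it lay between -7.86 and -7.77 in WT and at 2.10, 1.24, -4.35 and 4.30 in KO, where the lowest is the library with 1 read of mir-302b and none of mir-367. The fall of mir-302b alone sets the direction of this ratio, so no test is given. As a share of cluster reads, mir-367 was 64.9% and 87.6% in E7.5 KO and 82.1% in E8.5 KO replicate 1, and it gave 9 of 12, 0 of 1 and 5 of 5 reads in the other E8.5 KO libraries.

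At E9.5 the KO libraries kept reads of all 4 miR-302 hairpins and had none of mir-367. mir-302b stood at 101 and 34.8 normalized counts in KO beside 212 and 253 in WT, mir-302d at 35.2 and 11.6 beside 70.8 and 121, mir-302a at 5.87 and 29.0 beside 49.2 and 82.3, and mir-302c at 5.87 and 0 beside 6.47 and 10.3. All 4 were lower in both KO libraries than in both WT libraries, as were 27.4% of all tested hairpins. For mir-302c the nearest values, 5.87 (4 reads) and 6.47, lie closer than the 1.47 that 1 read was worth in E9.5 KO replicate 1. limma called none of the 5, with log2 fold changes of -1.94 ± 1.12 for mir-302b, -2.13 ± 0.80 for mir-302d, -2.17 ± 0.88 for mir-302a and -1.81 ± 1.03 for mir-302c (adjusted p = 0.222 to 0.345), and it called 0% of all tested hairpins lower and 0.669% higher. At an unadjusted p under 0.05 limma had 51 hairpins in either direction, mir-302a and mir-302d among them, and edgeR and DESeq2 called 0 hairpins lower. In the higher direction edgeR called 2 hairpins and DESeq2 41, or 13.7%. Pooled KO levels were 35.1% of WT for mir-302b (27.8% to 43.8%), 31.4% for mir-302d (20.8% to 45.7%), 22.8% for mir-302a (12.4% to 38.6%) and 50.7% for mir-302c (13.5% to 135%, 4 KO reads). These levels depend on single libraries: leaving out 1 E9.5 KO library moved the log2 fold change to between -2.70 and -1.18 for mir-302b, -2.89 and -1.37 for mir-302d, -3.24 and -1.11 for mir-302a and -3.20 and -0.42 for mir-302c. The scaling bears on this comparison too: TMM moved the median of all hairpins by -0.56 and library-sum scaling by -0.35.

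The E9.5 reads of mir-367 cannot show a difference. WT held 12 and 6 reads, and KO 0 of 39667 and 0 of 24184 reads. Taken over the group, 3 KO reads would be 2.92 normalized counts, which is above the WT mean of 1.82 ± 0.0764 (SD, n = 2), so a loss was not detectable at this depth.

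The 127 miR-302 reads of the E9.5 KO libraries were spread over the 4 hairpins. Of 101 reads in replicate 1, mir-302b made up 68.3% (exact binomial interval 58.3% to 77.2%), mir-302d 23.8%, mir-302a 3.96% (1.09% to 9.83%) and mir-302c 3.96%. Of 26 reads in replicate 2 the shares were 46.2% (26.6% to 66.6%), 15.4%, 38.5% (20.2% to 59.4%) and 0%. The share of mir-302a differs between the 2 libraries beyond their counting intervals, and the WT range of 13.5% to 17.7% lies between them. By contrast the 11 reads left at E8.5 were all from mir-302b, and the 25 left at E7.5 were 9 from mir-302b, 9 from mir-302d, 4 from mir-302a and 3 from mir-302c.

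**Figure D4:**
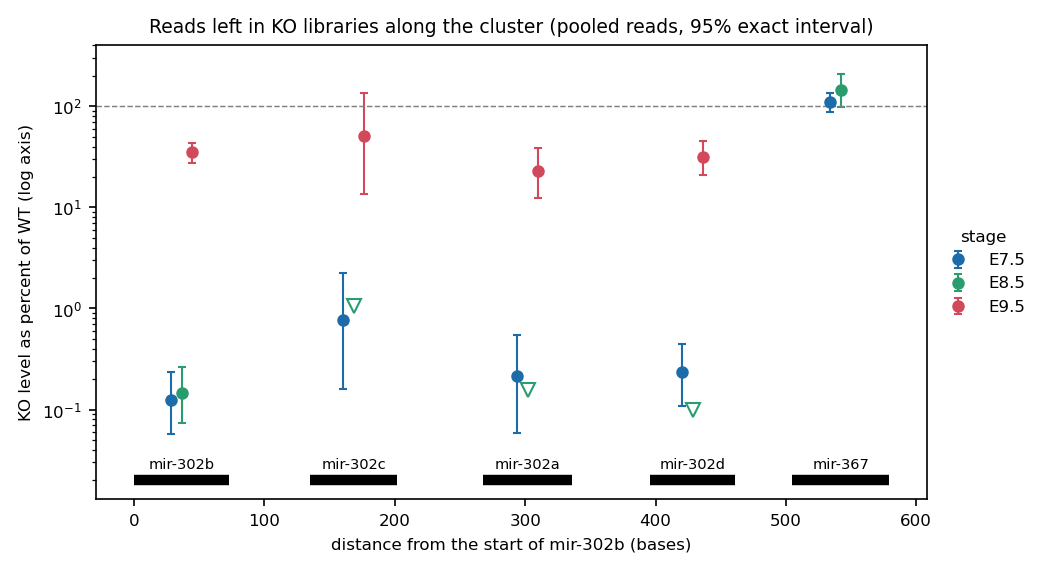
Pooled KO level as a percent of WT (log axis) for each hairpin at its place in the cluster, by stage, with 95% exact intervals. Black bars mark the hairpins and the dashed line is the WT level. Open triangles stand at the floor of 3 reads where KO had none, and the exact upper limits lie somewhat higher. mir-302b to mir-302d lie under 1% at E7.5, at 0.146% or at floor values of up to about 1% at E8.5, and between 22.8% and 50.7% at E9.5. The early points of mir-367 lie near the WT level, and its E9.5 value is left out because the floor is above the WT level.

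Of the miR-302 hairpins, 3 were higher in the E9.5 than in the E8.5 KO libraries by limma. Pooled, mir-302b was 16.9-fold higher (interval 8.95 to 35.2), and the hairpins at 0 reads in E8.5 KO were set against the floor of 3 reads. On that floor mir-302d was 21.4-fold higher and mir-302a 10.7-fold higher. The exact lower limits, which also hold the counting error of their 28 and 14 E9.5 reads, were 16.3-fold and 7.61-fold. For mir-302c, with 4 reads against 0, the exact lower limit was 1.51-fold. limma called mir-302d (log2 fold change 4.42 ± 0.69, adjusted p = 0.00106), mir-302a (3.84 ± 0.76, adjusted p = 0.00419) and mir-302b (3.52 ± 0.97, adjusted p = 0.0196) higher, against 18.4% of all tested hairpins called higher. mir-302c was at 1.39 ± 0.89 (adjusted p = 0.265) and mir-367 at -3.22 ± 1.20 (adjusted p = 0.0617). The median over the 5 was 3.52, beside 0.40 over all hairpins. Without E9.5 KO replicate 2 only mir-302d was still called (mir-302a at adjusted p = 0.103 and mir-302b at 0.0929), and without E9.5 KO replicate 1 mir-302b was not (0.140). mir-302b was also not called with library-sum scaling (0.0569), no filter (0.0581) or only the groups compared (0.219), nor mir-302a with a pseudocount of 10 (1.31, adjusted p = 0.0624). edgeR and DESeq2 also called mir-367, as lower, in this comparison, where they called 7.69% and 9.36% of hairpins lower.

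From E7.5 to E8.5 in KO only mir-302d was called, at 9 reads against 0 (log2 fold change -3.02 ± 0.69, limma adjusted p = 0.00389), where 20.7% of all tested hairpins were called lower. It was not called without E7.5 KO replicate 1, whose 6 reads are most of the 9, nor with a pseudocount of 10 (-0.85, adjusted p = 0.228), where mir-367 was called instead (-1.85, adjusted p = 0.0232). mir-302a was at -2.05 ± 0.76 (adjusted p = 0.0567), mir-302c at -1.80 ± 0.89 (0.147) and mir-302b at -0.43 ± 0.97. mir-367 was at -2.99 ± 1.20 (0.0736), next to -2.21 ± 1.26 in WT, and its pooled KO level was 4.19-fold lower at E8.5 than at E7.5.

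A test of whether the KO effect differs between stages called mir-302d (limma F test, adjusted p = 0.00156), mir-302a (adjusted p = 0.00592) and mir-302b (adjusted p = 0.0158), against 2.34% of all tested hairpins. mir-302c (adjusted p = 0.116) and mir-367 (adjusted p = 0.863) were not called. The call of mir-302b was lost without E9.5 KO replicate 1 (0.0920) or either E9.5 WT library (0.0777 and 0.0737), with library-sum scaling (0.0898), with TMM without the cluster (0.0567) and with a pseudocount of 0.5 (0.0622). edgeR (0.0486) and DESeq2 (0.00443) also called mir-302c. Over the 3 stages together, the KO minus WT difference of mir-367 was -0.63 on the log2 scale (two-sided exact permutation within stage, p = 0.283, 1260 assignments). This value moves with the pseudocount, to -0.030 with 10 (same exact permutation test, p = 0.922) and to -0.95 with 0.5 (p = 0.175). The stages weigh equally in it, at 0.19 for E7.5, -0.59 for E8.5 and -1.49 for E9.5. Its largest part thus comes from E9.5, where the reads of mir-367 cannot show a difference, so the combined value cannot decide whether mir-367 changed.

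Other measures differed between the E9.5 groups along with the miR-302 hairpins, and their part in the result was not tested. The E9.5 WT libraries carry the code number 209 and the KO libraries 171, so this label and the genotype cannot be told apart. The 6 neural hairpins, all with reads, summed to 102 and 170 normalized counts in WT and to 513 and 1018 in KO, and the 5 endoderm and liver hairpins, all with reads, to 152 and 326 in WT and to 763 and 2361 in KO. The 6 epithelial hairpins summed to 22.8 and 23.8 in WT and to 81.2 and 169 in KO, and the 3 vascular hairpins to 159 and 200 in WT and to 377 and 806 in KO. The 5 muscle hairpins, with mir-1a-2 at 0 in both groups and mir-206 at 0 in KO, summed to 6.32 and 59.3 in WT and to 57.2 and 60.9 in KO, which overlap. The 3 blood hairpins, with mir-451a at 0 in both groups and mir-486a at 0 in WT, summed to 0.936 and 2.06 in WT and to 2.90 and 8.80 in KO. In E9.5 KO replicate 2, 1 read was worth 2.90, more than either WT sum, so the blood sums cannot show a difference. The 5 mesenchymal hairpins summed to 1630 and 1779 in WT and to 676 and 747 in KO. Markers of pluripotent cells other than this cluster, 8 hairpins of the mir-290 cluster, summed to 36.2 and 49.7 in WT and to 2.90 and 27.9 in KO, with mir-292b at 0 in both groups and mir-294 at 0 in KO. The KO sum of 2.90 is 1 read in E9.5 KO replicate 2. At E7.5 the same list summed to 3053 and 6144 in WT and to 3834 and 8271 in KO, which overlap.

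The 4 miR-302 hairpins were set beside mir-291a, mir-294 and mir-295, whose 3p seed is that of miR-302b-3p and miR-302d-3p. Together these hairpins summed to 4947 and 16326 normalized counts in E7.5 WT, 6092, 3949 and 6621 in E8.5 WT, and 349 and 481 in E9.5 WT. The miR-302 hairpins held 80.9% and 87.1% of these reads in the E7.5 embryos, 98.1% to 98.7% in the E8.5 cells and 96.8% and 97.0% in the E9.5 cells. Counting only mir-302b and mir-302d, whose printed 3p strands have the seed AAGUGCU, the WT shares were 77.5% and 85.0% in the E7.5 embryos. They were 97.8% to 98.4% in the E8.5 cells and 96.2% in both E9.5 libraries. This narrower sum was added after the data were seen. It leaves out mir-302a only because the reference used held no 3p strand for it. In the E7.5 KO embryos the sum with all 4 was 3082 and 1151, and 1.01% and 1.14% of it came from the miR-302 hairpins. In the E8.5 KO cells the sum was 99.4, 32.9, 58.0 and 37.3, below the 3 WT libraries. In the E9.5 KO cells it was 161 and 78.3, with 91.8% and 96.3% from miR-302.

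mir-291a, mir-294 and mir-295 themselves were not called in KO against WT at any stage (0 of 3 in each direction, and 0 by edgeR and DESeq2). mir-294 stood at 510 ± 364 in E7.5 WT and 1048 ± 907 in E7.5 KO (SD, n = 2 each). The E8.5 values were 22.4 ± 0.647 in WT (n = 3) and 17.4 ± 8.81 in KO (n = 4). All 3 were called lower in WT at E8.5 than at E7.5, for example mir-295 from 718 ± 336 (n = 2) to 42.4 ± 11.3 (n = 3, limma adjusted p = 5.66e-04), the step at which no miR-302 hairpin was called. That difference between the 2 sets of hairpins was not itself tested.

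**Figure D5:**
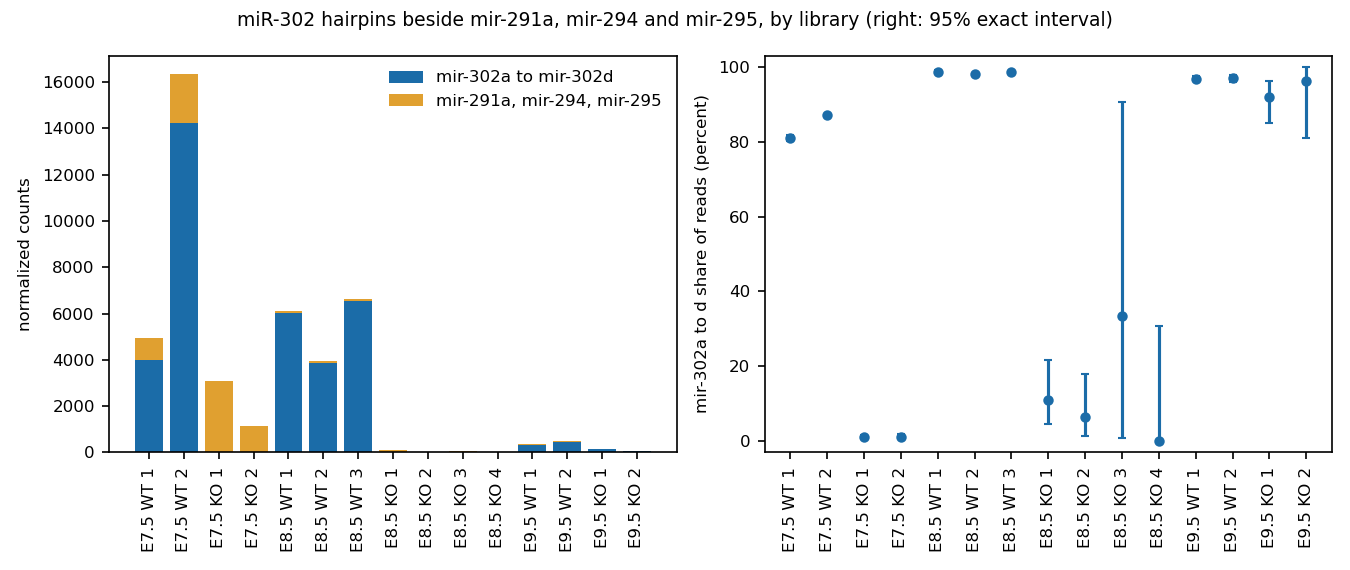
Left, normalized counts of mir-302a to mir-302d and of mir-291a, mir-294 and mir-295 stacked by library; right, percent of their reads that come from mir-302a to mir-302d, with 95% exact intervals. The miR-302 share is above 80% in every WT library, near 1% in the E7.5 KO libraries and above 90% in both E9.5 KO libraries, and the wide E8.5 KO intervals rest on few reads.

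mir-367 supplied a small part of its own seed group. Together with mir-25, mir-32, mir-363, mir-92a-1, mir-92a-2 and mir-92b, it made up 0.453% and 0.880% of the reads in E7.5 WT, 0.0503% to 0.0936% in E8.5 WT, and 0.00784% and 0.0103% in E9.5 WT. The group was dominated by mir-92a-1, a hairpin of the mir-17-92 cluster that promotes proliferation, at 6636 ± 434 (SD, n = 2), 12579 ± 349 (n = 3) and 15899 ± 2701 (n = 2) normalized counts over the WT stages. mir-92a-1 and mir-92a-2 give the same mature 3p strand and share reads, so the split between them is uncertain. In KO the mir-367 share was 3.29% and 1.21% in the E7.5 embryos, 0% to 0.315% in the E8.5 cells and 0% in the E9.5 cells. None of the 5 tested relatives was called in KO against WT at any stage by limma. At E7.5 the other hairpins of the group summed to 9031 and 11136 normalized counts in WT and to 1680 and 7585 in KO. The mir-367 share in E7.5 KO thus stands over a lower sum. Fitted log2 fold changes there were -1.82 ± 0.68 (mir-92a-1), -1.47 ± 0.42 (mir-92a-2), -3.37 ± 0.90 (mir-92b), 0.47 ± 0.42 (mir-25) and 0.16 ± 0.42 (mir-363).

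Across the 7 WT libraries the 4 miR-302 hairpins were alike and mir-367 less so. On the log2(normalized count + 1) scale, Pearson's r between pairs of the 4 was 0.993 to 0.998, and between mir-367 and each of them 0.895 to 0.920. The points share depth, and differences between stages enter them, so these are descriptions. Among 81 other hairpins compared, those most like the summed miR-302 hairpins were mir-200b (r = 0.948, means of 342, 118 and 11.2 normalized counts over the stages), mir-200c (0.944, means of 310, 64.2 and 3.96) and mir-494 (0.933), of which the first pair are epithelial hairpins. Those most like mir-367 were mir-293 of the mir-290 cluster (r = 0.989, means of 1244, 115 and 16.6) and mir-543 and mir-409 of the imprinted Dlk1-Dio3 region (0.988 and 0.986).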

How the data were processed

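Per the submitters' processing notes, reads were checked with FastQC 0.11.5 and aligned with STAR 2.7.0f to mm10. The authors deposited a signal per hairpin and library, the read count over a size factor of that library (normalized count). All 6086 values above 0 were whole multiples of what 1 read was worth (within 0.001), so whole reads were recovered, 1336573 in all. The table lists 3337 entries: 2108 mature arms, all at 0, and 1229 hairpins, of which 3 repeated names were used at their first entry. In the deposited sheets 1 per-library column matched no sample and was not used. The deposited Mfuzz cluster number is an other unit, used only as a description.

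Fits used limma 3.58.1 (R 4.3.3; eBayes with trend, two-sided) on log2(normalized count + 1), with 6 group means over 15 libraries. Benjamini-Hochberg adjustment ran over 299 hairpins that reached 10 normalized counts in 2 or more libraries, and the threshold was 0.05. edgeR 4.0.16 (quasi-likelihood) and DESeq2 1.42.0 ran on the recovered reads with the authors' size factors. Only the limma fit of E8.5 KO against WT was tried on simulated reads, which were given the same spread for every hairpin. Pooled levels are summed reads over summed size factors, with exact conditional intervals (95%), and a group at 0 reads was given a floor of 3 reads. Replicates were not merged in the fits, since the chi-square of each pair exceeded its degrees of freedom by a factor of 2.07 to 171. The pooled levels do sum reads over replicates, and their intervals leave out this spread between libraries and are too narrow for it. Sequences and hairpin positions came from RefSeq (GRCm38.p6) by symbol, with all 5 hairpins matched, and the host gene from GENCODE vM21 on GRCm38, the assembly that mm10 names. Likeness was ranked by Pearson's r over WT libraries, and the first 5 hairpins per profile were kept. Other settings were TMM and library-sum scaling, no filter, a minimum of 50, pseudocounts of 10 and 0.5, only the groups compared, a replicate block, a label-code block and leaving out each library. The members, the marker lists and the tests were chosen with earlier results of these data known. The rule for named hairpins took every cluster member, the hairpins that share a 3p seed with one, and the hairpins most like them.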

Additional observations from a re-analysis of the deposited data

Results flagged for a closer look

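Of the 5 cluster hairpins, 3 had a KO effect that differed between stages by the test of the difference itself (limma F test of the 2 interaction contrasts): mir-302d with an adjusted p of 0.00156, mir-302a with 0.00592 and mir-302b with 0.0158. The fitted KO minus WT differences at E7.5, E8.5 and E9.5 were -8.03, -10.32 and -2.13 for mir-302d, -8.08, -9.62 and -2.17 for mir-302a and -9.18, -9.22 and -1.94 for mir-302b on the log2 scale. The difference was negative at each of the 3 stages for all 3 hairpins and smallest in size at E9.5, where the WT level was also lowest. The call of mir-302b was lost under several other settings (adjusted p up to 0.0920), and those of mir-302a and mir-302d under the replicate block (0.0707 each).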

How the results depend on the processing

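At E8.5 and E9.5 the count of members called in KO against WT (4 and 0) was unchanged in each alternative run. At E7.5 it went from 4 to 0 with only the groups compared, where fewer libraries estimate the spread, and was otherwise 4. For WT E8.5 against E7.5, edgeR, DESeq2 and only the groups compared gave 1 in place of 0. For WT E9.5 against E8.5 the count of 3 became 5 in edgeR, DESeq2 and only the groups compared. It was 4 with a minimum of 50 or a pseudocount of 10, and 2 with TMM without the cluster or a pseudocount of 0.5. No filter left 1, the replicate block 0, and leaving out 1 E8.5 library 0 to 4. For WT E9.5 against E7.5 the count of 5 became 3 with library-sum scaling and 1 to 5 when 1 library was left out. The same count was 4 with TMM, TMM without the cluster, no filter and a pseudocount of 0.5. For KO E8.5 against E7.5 the count of 1 became 2 in edgeR, 2 with a pseudocount of 0.5 and 3 with only the groups compared. Without E7.5 KO replicate 1 the log2 fold change of mir-302d was -2.10. For KO E9.5 against E8.5 the count of 3 was 2 to 4 in the other settings. Each 4 adds mir-367, which was lower, to the 3 called higher. Without E9.5 KO replicate 2 the log2 fold change of mir-302a was 2.78, and without replicate 1 that of mir-302b was 2.77. The count of 3 differences between stages was 1 to 4 in the other settings. The replicate block left 1, with mir-302a and mir-302d each at a limma adjusted p of 0.0707. Replicate numbers were not treated as pairing in the main fits. Deviations of same-numbered WT and KO libraries correlated at -0.23 (E7.5), 0.14, 0.13 and 0.09 (E8.5) and 0.19 (E9.5). Differently numbered E8.5 pairs ran from -0.17 to 0.17. With 2 libraries per group, as at E7.5 and E9.5, differently numbered pairs must take the opposite value. These correlations therefore cannot decide whether the libraries were paired.

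Signs turned only for changes that no fit called. mir-367 in E8.5 KO against WT was 0.74 in edgeR and 0.73 in DESeq2, and between -1.41 and 0.48 when 1 library was left out; at E7.5 that range was -0.43 to 0.82. In WT E8.5 against E7.5, mir-302b was 0.17 with TMM, 0.26 with library-sum scaling and 0.11 with TMM without the cluster, and mir-302a 0.057 with TMM and 0.15 with library-sum scaling. Leaving out 1 library gave -1.31 to 0.54 for mir-302b, -1.74 to 0.24 for mir-302c, -1.29 to 0.29 for mir-302a and -1.68 to 0.23 for mir-302d. In KO E8.5 against E7.5, mir-302b was 0.076 with library-sum scaling, 0.035 with a pseudocount of 10, 0.0043 with the replicate block, and -1.07 to 0.37 when 1 library was left out. Over the 3 stages mir-367 kept p between 0.0972 and 0.536 when 1 library was left out; with pseudocounts of 10 and 0.5 its difference was -0.030 and -0.95. The causes of these shifts were not tested. Depth limits mir-367 at E9.5 and each KO value at E8.5, where 1 read is worth up to 19.3 normalized counts.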
